A study of Mus musculus with 6 samples.

Results

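Hydroxytamoxifen (OHT) was the switch for both fusion proteins of this study, and the 53 genes described here are those whose level followed OHT in the same direction in both fusion lines. They were chosen by their measured levels out of 22414 genes in the deposited table, of which 12145 reached a log2 level of 5.54 on at least 1 array and could enter. A member had an OHT minus ethanol difference of 0.4 or more, or of -0.4 or less, in both the DNMAML-ER and the Notch1-ER line on the log2 scale, which is a change of at least 1.32-fold. Its DAPT minus DMSO difference in the parental cells was under 0.4 in absolute size. Of the members, which made up 0.436% of the 12145 genes, 35 were higher and 18 lower with OHT. All 3 differences were thus used to choose them, so the values below are a description and carry no test.

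The cells were Beko, an established mouse leukaemia line of the T lineage, and each of the 6 conditions had 1 array. Parental Beko cells were kept for 24 h with 10 μM DAPT, or with DMSO as its vehicle. Beko cells infected with a DNMAML-ER fusion, and others infected with a Notch1-ER fusion, were kept for 48 h with 0.75 μg/mL OHT or with ethanol as its vehicle. The source texts place the hydroxyl group of OHT differently, and whether a line was 1 clone or a pool is not stated in the labels. The infected cells had been selected, so both ethanol arrays also carry infection and selection, which the DMSO array does not. None of the 6 arrays held parental cells given OHT. The effect of OHT on cells without an ER fusion therefore cannot be told apart from effects that need one.

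Notch1 is a receptor whose intracellular part is released by γ-secretase, enters the nucleus and activates transcription with RBPJ and a Mastermind co-activator. DAPT inhibits γ-secretase. DNMAML, a truncated Mastermind, joins the Notch complex without activating it. The ER part of each fusion keeps it inactive until OHT binds. The fusions are therefore made to act in opposite ways on Notch targets, while OHT itself is present in both lines. Tamoxifen and its hydroxylated forms are also known to bind cell proteins other than oestrogen receptors, among them enzymes that isomerise sterols.

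The deposited table gives each gene by Ensembl ID alone, and 0 of the 22414 IDs matched the gene table supplied as a reference. The members are therefore not named here, no promoter is shown, and only the leading 2 in each direction are given by ID. The T-lineage identity of the cells was not checked against marker genes for the same reason. The medians of the 6 arrays lay between 5.43 and 5.61.

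The leading higher gene was ENSMUSG00000021025. Its log2 level was 7.87 with ethanol and 8.60 with OHT in the DNMAML-ER line, and 7.81 with ethanol and 8.62 with OHT in the Notch1-ER line. The parental arrays read 8.36 with DMSO and 8.69 with DAPT. Both OHT arrays thus stood above both ethanol arrays, the DMSO array lay between them, and the DAPT array was the highest of the 6. The fold differences with OHT were 1.66 in the DNMAML-ER line and 1.74 in the Notch1-ER line, and the DAPT difference was 0.33 on the log2 scale.

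ENSMUSG00000075330 was the next. In the DNMAML-ER line its log2 level was 9.30 with ethanol and 10.01 with OHT, in the Notch1-ER line it was 9.11 and 9.86, and with DMSO and DAPT it was 9.37 and 9.21. Here the 2 OHT arrays stood above all 4 other arrays. The gene was 1.64-fold higher with OHT in the DNMAML-ER line and 1.68-fold higher in the Notch1-ER line, with a DAPT difference of -0.16 on the log2 scale.

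The leading lower gene was ENSMUSG00000006057. Its log2 level was 6.35 with ethanol and 5.61 with OHT in the DNMAML-ER line, 6.51 and 5.76 in the Notch1-ER line, and 6.15 and 5.79 with DMSO and DAPT. The DAPT array lay close to both OHT arrays, and the DMSO array between these and the ethanol arrays. The gene was 1.67-fold lower with OHT in the DNMAML-ER line and 1.69-fold lower in the Notch1-ER line. Its DAPT difference of -0.36 was near the limit that membership allows.

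ENSMUSG00000024030 had log2 levels of 8.00 with ethanol and 7.31 with OHT in the DNMAML-ER line, 8.13 and 6.73 in the Notch1-ER line, and 7.63 and 7.45 with DMSO and DAPT. Both OHT arrays were below the 4 others. It was 1.62-fold lower with OHT in the DNMAML-ER line and 2.64-fold lower in the Notch1-ER line, the latter being the widest fall of any member in that line.

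**Figure D1:**
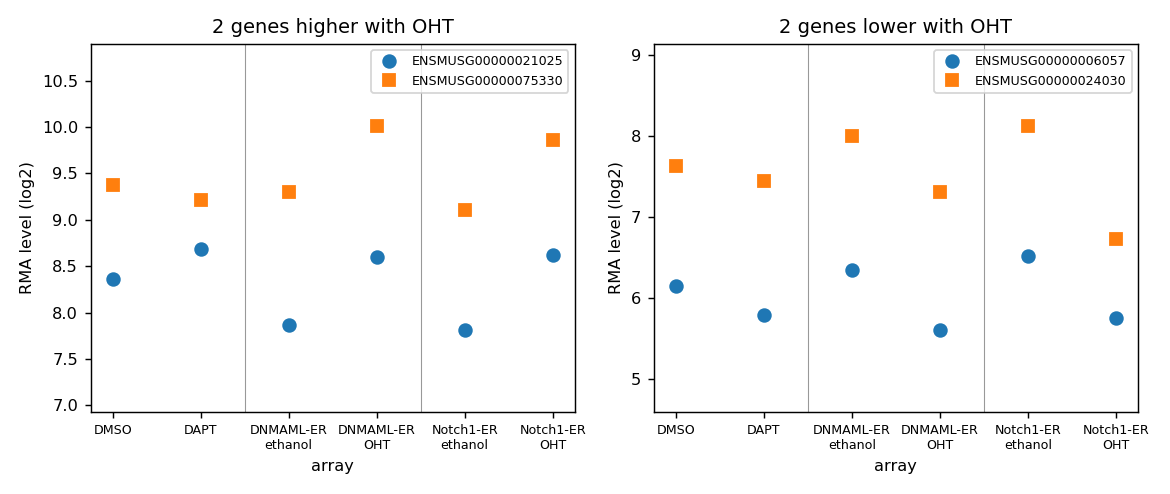
RMA level (log2, vertical axis) of the 2 leading higher genes (left) and the 2 leading lower genes (right) on each of the 6 arrays (horizontal axis), 1 point per gene and array, with grey lines between the 3 pairs. In both fusion lines the OHT point lies above the ethanol point for the genes on the left and below it for those on the right.

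The 35 higher genes had a median OHT difference of 0.57 in the DNMAML-ER line, with a range of 0.40 to 1.95. In the Notch1-ER line their median was also 0.57, with a range of 0.42 to 1.497. Over all 12145 genes the medians were 0.01 and -0.01. The differences were modest in size: 9 of the 35 reached 1.5-fold in both lines, and 0 reached 2-fold in both. Among all 12145 genes, 79 differed 1.5-fold in both lines, 43 of them in opposite directions.

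At 2-fold in 1 line, 2 of the 35 passed with DNMAML-ER and 3 with Notch1-ER. Of all 12145 genes, 96 differed 2-fold in either direction with DNMAML-ER, 64 with Notch1-ER and 9 with both. The 9 were 7 genes of opposite directions and 2 genes higher in both lines with a DAPT difference beyond the limit. The lines differed in the size of single members. The higher gene with the widest DNMAML-ER difference went from 3.74 with ethanol to 5.69 with OHT there, and from 4.83 to 5.35 in the Notch1-ER line. It reached the level of 5.54 on the DNMAML-ER OHT array only. The higher gene with the widest Notch1-ER difference went from 5.59 to 7.09 in that line and from 5.63 to 6.25 in the DNMAML-ER line. The difference was the larger one in the Notch1-ER line for 22 of the 35 and in the DNMAML-ER line for 13. Of all 12145 genes, 5503 had the larger absolute difference in the Notch1-ER line and 6642 in the DNMAML-ER line.

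The 18 lower genes had a median OHT difference of -0.60 in the DNMAML-ER line, from -1.14 to -0.40, and of -0.54 in the Notch1-ER line, from -1.40 to -0.43. Of these, 6 reached 1.5-fold in both lines and 0 reached 2-fold in both. The member with the widest DNMAML-ER fall went from 7.99 with ethanol to 6.85 with OHT there, and from 7.66 to 6.99 in the Notch1-ER line. Here the DNMAML-ER line had the larger difference for 11 genes and the Notch1-ER line for 7, and all genes lean to the same line.

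Membership near the size limit was a matter of hundredths. The 3 higher members closest to it had smaller OHT differences of 0.40, 0.41 and 0.42, and the 3 genes just outside had 0.398, 0.397 and 0.393. Among lower genes the 3 closest inside had -0.40, -0.41 and -0.43 and the 3 just outside -0.399, -0.397 and -0.391. Between 0.4 and 0.45 lay 11 of the 35 higher members and 5 of the 18 lower ones, and 27 and 11 further genes lay between 0.35 and 0.4.

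As background, an OHT difference of 0.4 or more was found in 752 of the 12145 genes (6.19%) in the DNMAML-ER line and in 489 (4.03%) in the Notch1-ER line. A difference of -0.4 or less was found in 494 (4.07%) and 348 (2.87%). Both lines were higher together in 70 genes (0.576%) and lower together in 44 (0.362%), before the limit on DAPT. The 35 higher members were 0.288% and the 18 lower members 0.148% of the genes. The rule fixes these counts, so nothing is read from them about the members. Between the 2 ethanol arrays, whose lines differ in their fusion, 493 genes (4.06%) differed by 0.4 or more in either direction. These are not replicates.

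Genes also went in opposite directions in the 2 lines, and whether Notch moved them was not tested. OHT left 73 genes lower in the DNMAML-ER line and higher in the Notch1-ER line (0.601%), and 56 the reverse (0.461%). Without the limit on DAPT, that is 129 genes against the 114 that went the same way. Inside the limit, 41 genes went in opposite directions and 53, the members, went the same way. The 12145 genes were split by mean level into a low, a middle and a high class of equal size. Counted without the limit on DAPT, the low class held 67 opposite and 41 same-direction genes, the middle class 47 and 44, and the high class 15 and 29. Same-direction genes thus outnumbered opposite ones in the high class and not in the other two, a difference that was not tested. Of the 53 members, 18 were in the low class, 25 in the middle class and 10 in the high class.

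**Figure D2:**
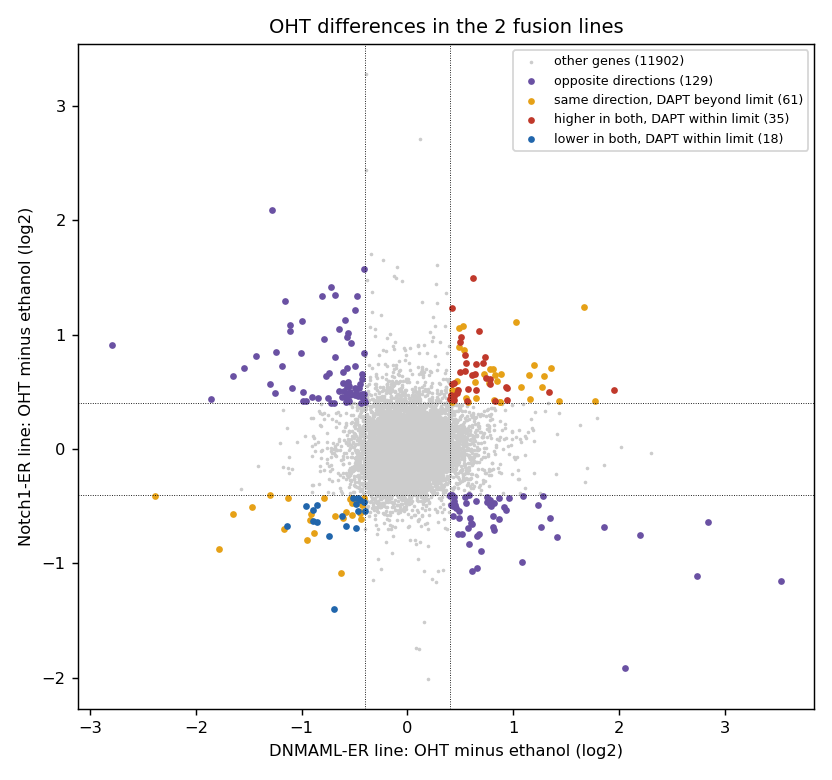
OHT minus ethanol difference (log2) in the DNMAML-ER line (horizontal axis) and in the Notch1-ER line (vertical axis) for the 12145 genes, 1 point per gene, with dotted lines at the size limit of 0.4 in each direction. The 35 higher members (red) lie in the upper right and the 18 lower members (blue) in the lower left, beside 61 genes of the same direction with a DAPT difference beyond the limit (orange) and 129 genes of opposite directions (purple).

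The limit on DAPT removed 61 of the 114 genes that followed OHT in both lines. Inside it lay 46.5% of the 114 same-direction genes and 31.8% of the 129 opposite ones, while it held 79.7% of all genes. The genes removed mostly went with DAPT in the direction they went with OHT: of the 35 removed higher genes 33 were higher with DAPT and 2 lower, and of the 26 removed lower genes 19 were lower and 7 higher. All genes gave 12.0% with a DAPT difference of 0.4 or more and 8.34% with one of -0.4 or less. The median DAPT difference was 0.83 for the 35 and -0.68 for the 26.

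The members leaned the same way inside the limit. The 35 higher members had a median DAPT difference of 0.17, from -0.32 to 0.40, with 26 above 0 and 9 below. The 18 lower members had a median of -0.19, from -0.40 to 0.36, with 13 below 0 and 5 above. Of all genes, 52.7% were above 0. In 39 of the 53 members, then, the DAPT array stood on the same side of its vehicle as the OHT arrays did. The DAPT pair shares no array with the OHT pairs, but its difference is part of the rule, so this is given without a test. At the edge of the limit the highest DAPT difference of a higher member was 0.399, and the nearest gene left out had 0.43.

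**Figure D3:**
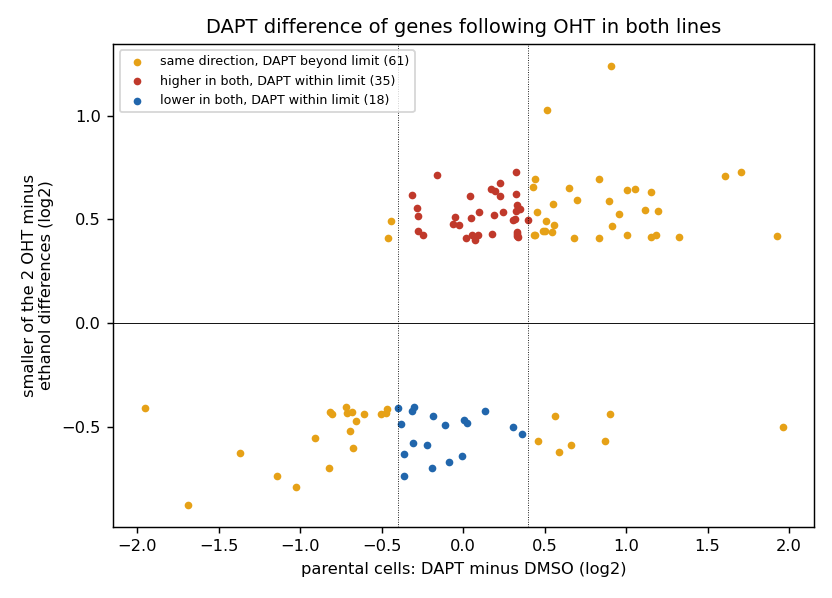
DAPT minus DMSO difference (log2, horizontal axis) against the smaller of the 2 OHT minus ethanol differences (log2, vertical axis) for the 114 genes that followed OHT in both lines, 1 point per gene, with dotted lines at the DAPT limit of 0.4 in each direction. Of the genes beyond the limit, 33 of the 35 higher ones lie on the right and 19 of the 26 lower ones on the left.

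The ethanol arrays of the fusion lines stood apart from the parental DMSO array for many members. In 24 of the 35 higher genes both ethanol levels were below the DMSO level, and in 6 both were above it. In 16 of the 18 lower genes both ethanol levels were above DMSO, and in 2 both were below. Of all genes, 37.6% had both ethanol levels below DMSO and 43.2% had both above.

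The 35 higher genes lay at a median of -0.29 (DNMAML-ER) and -0.28 (Notch1-ER) relative to DMSO with ethanol, and at 0.36 and 0.33 with OHT. The 18 lower genes lay at 0.41 and 0.45 with ethanol and at -0.24 and -0.10 with OHT. The DMSO level was thus between the ethanol and the OHT medians in both sets. Because ethanol levels enter the OHT difference, a low ethanol level by itself makes a gene more likely to be chosen as higher, and a high one as lower. DMSO and ethanol arrays also differ in vehicle, time, infection and selection, and the part of each in these values was not tested.

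**Figure D4:**
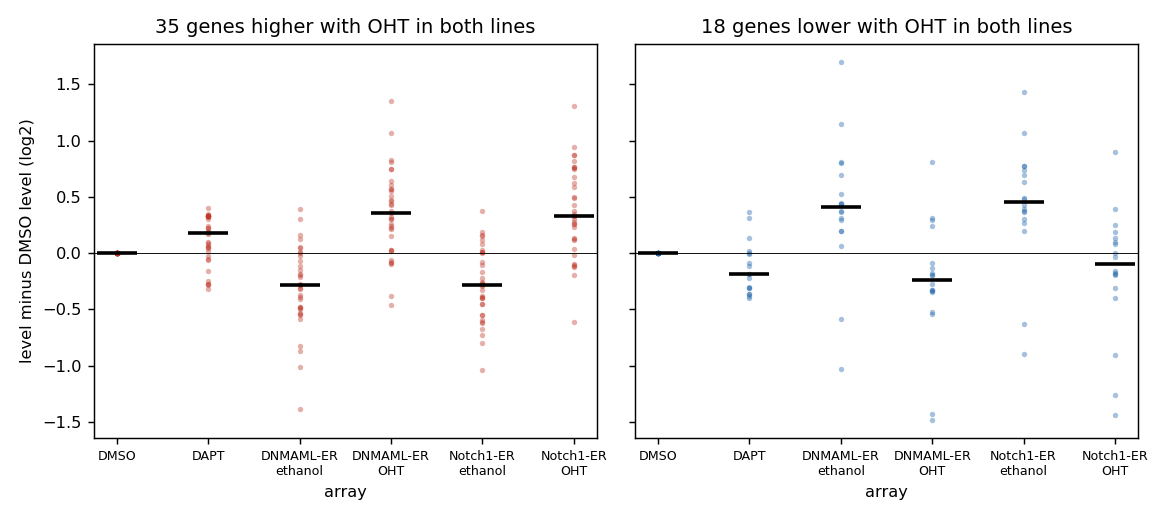
Level minus the DMSO level (log2, vertical axis) on each of the 6 arrays (horizontal axis) for the 35 higher members (left) and the 18 lower members (right), with 1 point per gene and the median as a black bar. The ethanol medians of -0.29 and -0.28 on the left and of 0.41 and 0.45 on the right lie on the other side of DMSO from the OHT medians.

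Both OHT arrays lay beyond all 4 other arrays in 30 of the 53 members. They were above the 4 others in 21 of the 35 higher genes, where 5.54% of all genes had this order, and below them in 9 of the 18 lower genes, where 4.64% did. The rule favours this order, so the shares are not compared further. In the other members at least 1 of the 4 arrays without OHT reached or passed the nearer of the OHT arrays, as the DAPT array did for ENSMUSG00000021025.

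Of the 53 members, 43 were at or above the level of 5.54 on all 6 arrays, and 84.8% of all 12145 genes were. The mean level over the arrays had a median of 7.49 in the higher set and 7.27 in the lower set, and of 7.64 over all genes. Of the higher genes, 5 stood above 5.54 on OHT arrays only, so their ethanol and parental levels were all under that floor. Of all genes 152 (1.25%) did so, and these members entered only through the arrays where they were high. In the lower set, 1 gene reached 5.54 on 1 array and 1 gene on 2 arrays, in each case ethanol arrays only. These lower genes likewise entered only through arrays where they were high. Over all genes, 467 reached 5.54 on 1 array and 316 on 2 arrays, whichever the arrays.

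The 2 ethanol arrays lay within 0.4 of each other in 50 of the 53 members, where 95.9% of all genes did. The 2 OHT arrays did so in 41 of the 53, where 89.2% of all genes did. The widest gap between the ethanol arrays was 1.10, for the higher gene with the widest DNMAML-ER difference.

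The one annotation that could be read by Ensembl ID was the set of mouse cell-cycle marker genes of the scran package, which serve to assign cells to the G1, S and G2/M phases. Of the 603 marker genes among the 12145, 5 were higher members (0.829%) and 0 were lower members. Over all genes 0.288% were higher and 0.148% lower members, and with counts this small nothing is read from the 5 or the 0. The marker genes had a median OHT difference of 0.05 in the DNMAML-ER line and -0.04 in the Notch1-ER line. Over all genes the medians were 0.01 and -0.01, and the gap between markers and all genes was not tested.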

How the data were processed

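Levels were measured on Affymetrix arrays, with total RNA as the starting material and biotin as the label. The authors deposited log2 values made with RMA, per the submitters' processing notes. RMA corrects the background, equalises the distributions of the arrays and summarises each probe set, so a change in total RNA per cell would not show. For the array model, the RMA version, the annotation and the build, the sources used here state none.

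Differences were taken on the deposited log2 scale with Python 3.11.15 and pandas 2.3.3. The floor of 5.54 is the rounded median, over all genes, of the mean level. With 1 array per condition no pair can be tested singly and there is no replicate error, and the number of arrays limits the precision. A fit of OHT over both lines would leave 1 residual degree of freedom; it was not run, because it would test the differences that chose the members. IDs were printed for the 2 members per direction with the largest value of the smaller OHT difference. Gene lists, marker lists and promoter motifs that need symbols were not analysed here. The members and lists were chosen with earlier results of these data known. The alternatives, with R 4.3.3 and limma 3.58.1, were a second quantile normalization, cyclic loess, other floors, sizes and DAPT limits. The cell-cycle markers of scran 1.30.0 and the alternatives for the genes of opposite directions other than the normalizations were chosen after seeing the data.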

Additional observations from a re-analysis of the deposited data

Results flagged for a closer look

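With OHT, 73 genes were lower in the DNMAML-ER line and higher in the Notch1-ER line, and 56 genes were higher in the DNMAML-ER line and lower in the Notch1-ER line, each by at least 0.4 on the log2 scale. They stand here because the 2 lines moved in opposite directions. With 1 array for each condition, no test of the lines against each other was made.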

How the results depend on the processing

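With 1 array per condition, nothing here has a replicate check. A second quantile normalization gave 35 higher and 16 lower genes, of which 29 and 13 were members, and cyclic loess gave 36 and 18, of which 30 and 16 were. All 53 members kept their direction in both lines under both, and the median difference of all genes stayed within 0.1 of 0. The 4 genes given by ID stayed past 0.4 in both lines. Genes of opposite directions numbered 132 with the second quantile normalization and 131 with cyclic loess. In each case 115 of the 129 were among them. The counts of higher and lower genes were 67 and 42 without a floor, which adds dim genes, 9 and 6 at 1.5-fold, 0 and 0 at 2-fold, 70 and 44 without the DAPT limit, and 15 and 8 with a DAPT limit of 0.2. Opposite directions gave 222 genes without a floor, 43 at 1.5-fold and 7 at 2-fold. These shifts follow from the looser or stricter rule. At 2-fold no test was run, so there is no count at an unadjusted p. A floor on the mean level gave 29 and 16. The alternatives for sterol genes and gene lists were not run, because no symbol could be assigned. No paired test was run, because each condition had 1 array and the counts come from no test. The ethanol and OHT arrays of a line are already set against each other within that line.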
